A study of Homo sapiens with 17 samples.

Results

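KRT20, KRT19, CLDN3 and SNAI1 are 3 genes of epithelial identity and 1 repressor of such genes. They were chosen by symbol, with their values known, from the 1400 genes that appear in at least 1 of 4 tables deposited for PC3 cells. PC3 is an established human prostate cancer cell line. All 4 were listed in at least 1 table. In the authors' deposited tables, KRT20 was listed as lower with both short hairpin RNAs (shRNAs, hairpins below) against ETV4, at 22.4% and 46.7% of the retroviral control with hairpin A and B. SNAI1 was listed as lower with both hairpins against MED25, at 41.2% and 47.4% of the lentiviral control with hairpin A and B, in the authors' deposited tables. KRT19 and CLDN3 were listed with MED25 hairpin B only among the 4 tables, at 65.7% and 52.7% of the lentiviral control in the authors' deposited table.

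RNA from 17 libraries was sequenced 7 days after early passage PC3 cells were infected. Lentivirus carried MED25 hairpin A (3 libraries), MED25 hairpin B (3 libraries) or the lentiviral control (3 libraries). Retrovirus carried ETV4 hairpin A (3 libraries), ETV4 hairpin B (3 libraries) or the retroviral control (2 libraries). The labels describe the lentiviral control as a luciferase shRNA and the retroviral one as a control shRNA, whereas the design text speaks of an empty vector. Target, virus and control change together, so a difference between a MED25 and an ETV4 comparison cannot be told apart from one between the viruses or their controls. The labels do not state whether replicates came from separate cultures or whether cells were clonal.

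Keratins are intermediate filament proteins that assemble from 1 type I and 1 type II chain, and their combination marks the kind of epithelium. KRT19 and KRT20 are both type I chains of simple epithelia: KRT19 is known from ducts and KRT20 from intestinal and urothelial surface cells. CLDN3 is a claudin, a membrane protein that seals tight junctions between epithelial cells. SNAI1 is a zinc-finger repressor that binds E-box sequences and shuts off cadherin and, in mouse epithelial cells, claudin genes during epithelial-mesenchymal transition. ETV4 is a transcription factor of the ETS family, which binds DNA around a GGAA core, and MED25 is the Mediator subunit that contacts its activation domain. Whether the 2 factors control genes in common is the question posed by the series title.

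Of the 4 genes, 2 matched the RefSeq promoter table, KRT20 and CLDN3, and their sequences are shown because ETS factors and SNAI1 read letters that can be looked up there. Each line gives the 250 bases before the annotated start on the gene's strand, 5′ to 3′. Capitals mark GGAA, the ETS core, on either strand, where the reverse strand reads TTCC. The KRT20 stretch lies at chr17:40885243-40885492 and the CLDN3 stretch at chr7:73770271-73770520, both on the minus strand of GRCh38.p14.
KRT20: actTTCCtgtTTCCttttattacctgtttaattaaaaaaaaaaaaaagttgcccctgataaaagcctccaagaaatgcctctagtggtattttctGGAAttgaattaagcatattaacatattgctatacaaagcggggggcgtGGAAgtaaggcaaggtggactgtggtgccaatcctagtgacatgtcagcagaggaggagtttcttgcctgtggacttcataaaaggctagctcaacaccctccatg
CLDN3: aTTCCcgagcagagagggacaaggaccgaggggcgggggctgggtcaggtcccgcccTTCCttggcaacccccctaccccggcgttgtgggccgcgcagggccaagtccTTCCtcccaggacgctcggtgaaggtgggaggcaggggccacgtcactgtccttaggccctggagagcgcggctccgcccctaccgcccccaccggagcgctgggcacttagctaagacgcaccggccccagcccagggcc

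The KRT20 window of 300 bases, which adds the 50 bases after the start, held 4 GGAA matches and the CLDN3 window 3. The median over all 35116 promoters of the table was 3, and 95.5% of them held at least 1 match. Base composition differed between the stretches before the start: 41.2% G or C for KRT20, 71.6% for CLDN3 and a median of 58% over all promoters. CAGGTG, a form of E-box that SNAI1 can bind, was searched on both strands and is a special case of the general E-box CANNTG. It occurred once in each window, first base at position 33 from the KRT20 start and at position 37 from the CLDN3 start, and not in the 250 bases before either start. Each match is shown with its surroundings, at chr17:40885193-40885222 and chr7:73770221-73770250, with CAGGTG in capitals.
KRT20 site: atcctgaagctaCAGGTGctccctcctgga
CLDN3 site: cccacaaagccacaggCAGGTGcaggcgca
Among all promoters of the table, 20.6% held CAGGTG anywhere in the window and 3.73% held it within the 50 bases after the start. Both matches lie in these 50 bases, so the smaller share follows the position found and nothing is read from it. CANNTG occurred in 68.7% of all windows, and in KRT20 and CLDN3 its 1 match was the CAGGTG above. A match of letters describes the sequence and does not show that ETV4 or SNAI1 binds there.

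The values that follow are log2 ratios of hairpin over control, each a single figure per comparison made by the authors. Values per library were not analysed here, so no spread between replicates, no depth and no standard error can be given. The tables list genes past a minimum, and every listed gene was lower, by at least 1.5-fold. A gene missing from a table may have changed less, may have risen or may have failed the authors' threshold. It may also be expressed too little in PC3 cells to be measured. The targeted genes checked the labels: MED25 was at 51.6% and 30.5% of control with MED25 hairpin A and B, and ETV4 at 26.1% and 15.8% with ETV4 hairpin A and B, in the authors' deposited tables. The sign of the targeted genes also helped to set the direction of the ratios. Of 9 luminal, 4 basal, 6 neuroendocrine and 6 fibroblast markers, 1 luminal, 1 basal, 0 neuroendocrine and 1 fibroblast marker were listed in any table. These were HOXB13, KRT15 and COL3A1, all with ETV4 hairpin A alone, which listed 2.17% of all protein-coding genes. The tables hold no levels from which to check cell identity.

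**Figure D1:**
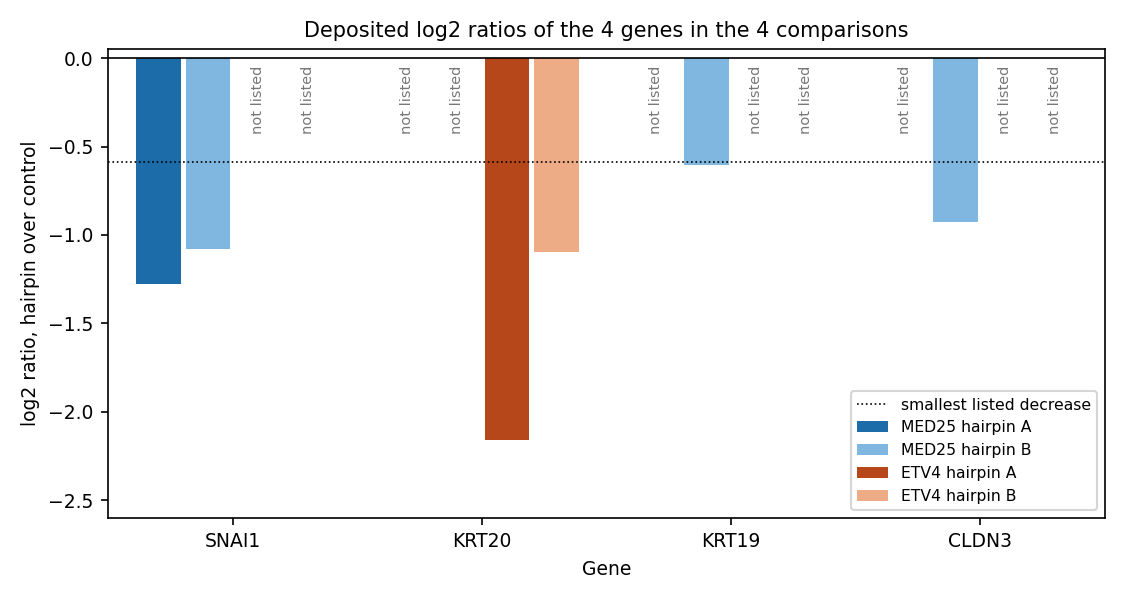
Bars give the deposited log2 ratio of hairpin over control (vertical axis) for SNAI1, KRT20, KRT19 and CLDN3 in the comparisons of MED25 hairpin A and B with the lentiviral control and of ETV4 hairpin A and B with the retroviral control. The dotted line is the smallest decrease any table lists. SNAI1 has bars for both MED25 hairpins, KRT20 for both ETV4 hairpins, and KRT19 and CLDN3 for MED25 hairpin B.

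SNAI1 (ENSG00000124216) lies on the plus strand of chromosome 20, at chr20:49982999-49988886 in GRCh38. Its log2 ratio was −1.28 with MED25 hairpin A and −1.08 with MED25 hairpin B in the authors' deposited tables. These are decreases of 2.43-fold and 2.11-fold against the lentiviral control. SNAI1 was number 71 of 786 genes ranked by decrease with hairpin A, and number 56 of 374 with hairpin B, in the authors' deposited tables. Both values came from comparisons with the same 3 control libraries and are therefore not independent. SNAI1 was listed with neither ETV4 hairpin.

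The larger decrease of SNAI1 was listed for the hairpin that left more MED25 transcript. MED25 itself was at −0.96 with hairpin A and −1.71 with hairpin B, whereas SNAI1 differed by −0.20, hairpin A minus hairpin B, in the authors' deposited tables. Over the 153 genes listed with both MED25 hairpins, the median of the same difference, hairpin A minus hairpin B, was −0.05, with a range of −1.89 to 0.92, in the authors' deposited tables. SNAI1 was number 44 of these 153 genes, counted from the most negative difference. Genes that did not pass the authors' minimum with both hairpins are left out, so a place inside this range shows little. No test of the difference could be made without values per library.

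KRT20 (ENSG00000171431) lies on the minus strand of chromosome 17, at chr17:40875941-40885227 in GRCh38, and had the largest decrease of the 4 genes. Its log2 ratio was −2.16 with ETV4 hairpin A and −1.10 with ETV4 hairpin B in the authors' deposited tables. As folds these are 4.46 and 2.14 below the retroviral control. By size of decrease KRT20 was number 5 of 495 genes with hairpin A and number 16 of 98 with hairpin B in the authors' deposited tables. Both values share the same 2 retroviral control libraries. KRT20 was listed with neither MED25 hairpin.

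For KRT20, too, the larger decrease came with the hairpin that left more of its target. ETV4 was at −1.94 with hairpin A and −2.67 with hairpin B, while the log2 ratio of KRT20 differed by −1.06, hairpin A minus hairpin B, in the authors' deposited tables. Of the 57 genes listed with both ETV4 hairpins, 5 had a more negative difference of hairpin A minus hairpin B than KRT20. The median difference over these genes was −0.22 and the lowest −1.57 in the authors' deposited tables. This rank is a description, since the deposited values carry no error with which to test a difference between the hairpins.

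CLDN3 (ENSG00000165215) lies on the minus strand of chromosome 7, at chr7:73768997-73770270 in GRCh38. Its log2 ratio with MED25 hairpin B was −0.93, a 1.90-fold decrease against the lentiviral control, in the authors' deposited table. That made it number 98 of 374 genes by decrease. CLDN3 was not listed with MED25 hairpin A, ETV4 hairpin A or ETV4 hairpin B.

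KRT19 (ENSG00000171345) lies on the minus strand of chromosome 17, at chr17:41523617-41528308 in GRCh38. With MED25 hairpin B its log2 ratio was −0.61, a 1.52-fold decrease against the lentiviral control, in the authors' deposited table. KRT19 was number 352 of 374 genes, close to the smallest decrease of that table, −0.59. The absence of KRT19 from the tables of MED25 hairpin A and both ETV4 hairpins does not show a different response, since a slightly smaller decrease would not be listed. For CLDN3 and KRT19 the difference between MED25 hairpin A and B was not tested.

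Counted by table, 1 of the 4 genes was listed with MED25 hairpin A, 3 with MED25 hairpin B, 1 with ETV4 hairpin A and 1 with ETV4 hairpin B. As background, the authors' deposited tables listed 3.44%, 1.61%, 2.17% and 0.456% of the 19951 protein-coding genes of the annotation, many of which PC3 cells need not express. Nothing is read from this comparison, because the genes were chosen from these tables. Decreases of at least 2-fold were found for SNAI1 with MED25 hairpin A, where 24.0% of the listed genes reached that size, and with MED25 hairpin B, where 20.1% did. KRT20 reached it with ETV4 hairpin A, against 23.2% of the listed genes, and with ETV4 hairpin B, against 20.4%. KRT19 and CLDN3 stayed under 2-fold. None of the 4 genes was among the 143 genes, 10.2% of the 1400, found in at least 1 table of MED25 and at least 1 of ETV4.

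The authors' adjusted-p score set the genes in another order than the size of the decrease. A higher score is read here as stronger evidence, because the targeted ETV4 had the highest score of both its tables. MED25 was number 227 of 786 and number 17 of 374 by score with MED25 hairpin A and B in the authors' deposited tables, so this reading rests on ETV4. CLDN3 had a score of 198, number 37 of 374 in the authors' deposited table for MED25 hairpin B. KRT19, with its small decrease, had a score of 111, number 95 of 374, in the same authors' deposited table. SNAI1, with a larger decrease there, had a score of 37.1 and was number 278 of 374 in the authors' deposited table. With MED25 hairpin A the SNAI1 score was 35.1, number 636 of 786, in the authors' deposited table. KRT20 had a score of 196, number 58 of 495, with ETV4 hairpin A and of 31.1, number 78 of 98, with ETV4 hairpin B in the authors' deposited tables.

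Each gene was then set beside the 20 genes of its table with the nearest log2 ratios. CLDN3 scored above 19 of its 20 neighbours, whose median score was 61.7 in the authors' deposited table. KRT19 scored above 17 of 20, with a median of 63.4, in the authors' deposited table. SNAI1 scored above 3 of 20 with MED25 hairpin A and above 1 of 20 with hairpin B, where the medians were 80.1 and 98.9 in the authors' deposited tables. KRT20 scored above 5 of 20 with either ETV4 hairpin, with medians of 283 and 138 in the authors' deposited tables. A score of at least 50 was held by 0 of 1 with MED25 hairpin A, 2 of 3 with MED25 hairpin B, 1 of 1 with ETV4 hairpin A and 0 of 1 with ETV4 hairpin B. Over all listed genes the shares were 64.8%, 61.5%, 60.6% and 62.2%, in the same order. Thus CLDN3 and KRT19 combined modest decreases with high scores for their size, and SNAI1 a larger decrease with a low score for its size. KRT20, too, scored below most of its 20 neighbours with both ETV4 hairpins.

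**Figure D2:**
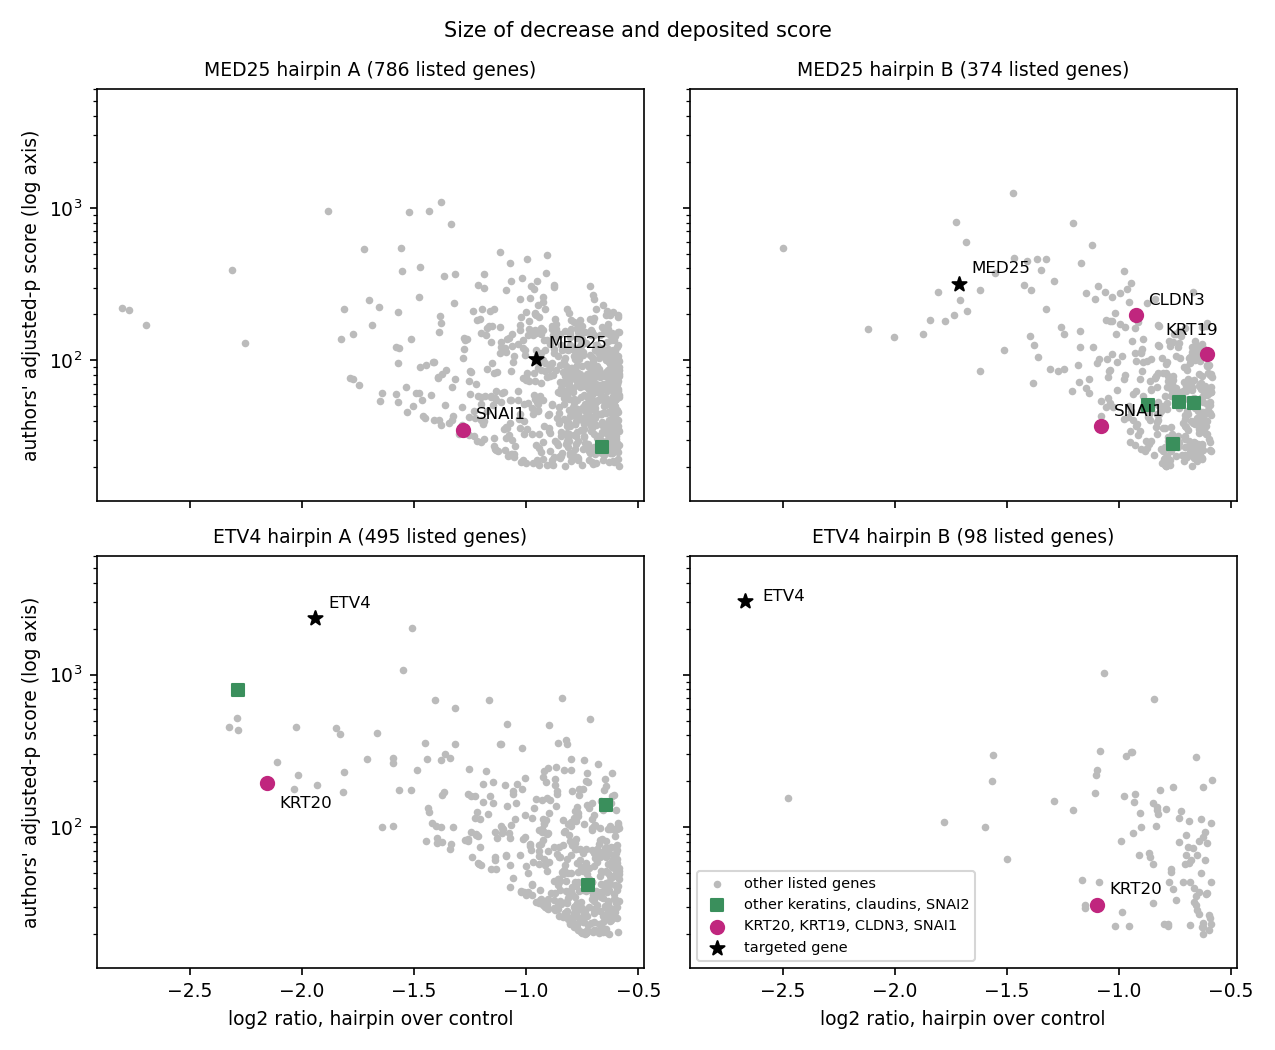
Each panel plots, for one comparison, the deposited log2 ratio of hairpin over control (horizontal axis) against the authors' adjusted-p score (vertical log axis) of every listed gene. CLDN3 and KRT19 lie toward the top of the genes of like decrease with MED25 hairpin B, SNAI1 lies near the bottom with both MED25 hairpins, and KRT20 lies at scores of 196 and 31.1 with the ETV4 hairpins.

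Few positions of these transcripts began a stretch of 50 bases that occurred exactly in another gene. Stretches alike with mismatches were not counted, so the effect of reads from similar genes was not tested. Of all windows of 50 bases in the longest annotated transcript, 0 of 1688 for KRT20 and 0 of 1637 for SNAI1 occurred in a transcript of another gene. For KRT19, 24 of 1341 windows, 1.79%, also occurred in the processed pseudogene KRT19P1. For CLDN3, 22 of 1225 windows, 1.80%, also occurred in CLDN4. No annotated gene overlapped any of the 4 on either strand.

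KRT20 and KRT19 sit at separate places in the type I keratin cluster of chromosome 17, with 638389 bases between them in GRCh38. This interval holds 14 keratin and 34 keratin-associated protein genes, of which KRT15 and KRTAP4-9 were listed in any table. KRT15, a basal-cell keratin whose gene is the neighbour of KRT19 at a distance of 1087 bases, was at −0.64 and KRTAP4-9, a hair-shaft protein gene named after its value was seen, at −1.34 with ETV4 hairpin A in the authors' deposited table. Neither was listed with MED25 hairpin B, the comparison that listed KRT19.

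Among the genes listed in exactly the same tables as KRT20, which were 27 with KRT20 itself, the nearest log2 ratios were those of the clone-named gene RP11-59D5__B.2, the Fc receptor gene FCGR2A and the phospholipase gene PLD1. Likeness was measured as the Euclidean distance of the log2 ratios over the 2 ETV4 tables, and these distances were 0.36, 0.40 and 0.44. RP11-59D5__B.2 was at −2.32 and −0.77, FCGR2A at −2.29 and −0.72, and PLD1 at −2.03 and −0.68, with hairpin A and B in the authors' deposited tables. In rank order KRT20 stood next to KRT75 and CHAC1 with hairpin A, at −2.29 and −2.11, and next to CEP19 and RUNDC3B with hairpin B, at −1.10 and −1.09, in the authors' deposited tables.

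SNAI1 shared its pattern, both MED25 tables and no ETV4 table, with 124 other genes. The nearest were AC009041.1, C6orf141 and the Notch ligand gene DLL4, at distances of 0.04, 0.08 and 0.15 over the 2 MED25 tables. AC009041.1 was at −1.28 and −1.04, C6orf141 at −1.32 and −1.01, and DLL4 at −1.43 and −1.08 with hairpin A and B in the authors' deposited tables. Ranked by decrease, SNAI1 stood between DYNC1I1 and AC009041.1 with hairpin A, and between DLL4 and the serotonin receptor gene HTR7 with hairpin B. KRT19 and CLDN3 belonged to the 195 genes listed with MED25 hairpin B alone. CLDN3 stood there between DENND3 and PLEK2, and KRT19 between MYH15 and the receptor phosphatase gene PTPRF.

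Other keratins were listed beside KRT20 and KRT19 in 2 of the tables. Of 6 simple epithelial keratins, KRT7, KRT8, KRT18 and KRT23 were in no table. Over all 55 protein-coding keratins of the annotation, 0 were listed with MED25 hairpin A, 3 with MED25 hairpin B, 3 with ETV4 hairpin A and 1 with ETV4 hairpin B. In the same order these are 0%, 5.45%, 5.45% and 1.82%, beside the 3.44%, 1.61%, 2.17% and 0.456% of all protein-coding genes given above, and the counts include the chosen KRT19 and KRT20. KRT75, a type II keratin of the hair follicle, was at −0.73 with MED25 hairpin B and −2.29 with ETV4 hairpin A in the authors' deposited tables. It stood one place above KRT20 with ETV4 hairpin A. Of the KRT75 windows of 50 bases, 7.82% also occurred in KRT6B or in AC055736.1, a gene that overlaps KRT75 on the other strand. Some of the KRT75 reads may therefore belong elsewhere. With ETV4 hairpin A the score of KRT20 was 196, against 798 for KRT75, in the authors' deposited table. KRT81, a hair keratin, was at −0.66 with MED25 hairpin B in the authors' deposited table, but 44.6% of its windows of 50 bases also occurred in related genes such as KRT86, so this value is uncertain. The pseudogene KRT8P12 was at −0.87 with MED25 hairpin B in the authors' deposited table and overlaps KPNA4 on the other strand, so its reads may belong elsewhere. Of 15 basal and stratified keratins, KRT15 with ETV4 hairpin A was the one listed.

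CLDN3 was 1 of 2 claudins listed with MED25 hairpin B among 23 on the claudin list, or 8.70%, beside 1.61% of all protein-coding genes, with CLDN3 chosen for its listing. CLDN14, a claudin known from the inner ear and kidney, was the other, at −0.76 in the authors' deposited table. Its score was low, at 28.3, number 322 of 374. Part of CLDN14 overlaps genes on the opposite strand, and 4.38% of its windows of 50 bases occurred in one of them. Antisense genes there, AP000695.6 and AP000695.4, were themselves at −1.10 and −0.90 in the authors' deposited table for MED25 hairpin B, so the reads of CLDN14 cannot be told apart from theirs if counting ignored strand. CLDN1 was listed with ETV4 hairpin A, at −0.72 in the authors' deposited table, and CLDN4, which shares windows of sequence with CLDN3, was in no table. Of 20 other junction proteins, which include E-cadherin (CDH1), EPCAM and occludin (OCLN), 1 was listed in any table, or 5% with ETV4 hairpin A beside 2.17% of all protein-coding genes. This was TJP3, a scaffold of tight junctions, at −0.64 with ETV4 hairpin A in the authors' deposited table. The TJP3 score was low, at 29.5, number 414 of 495.

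**Figure D3:**
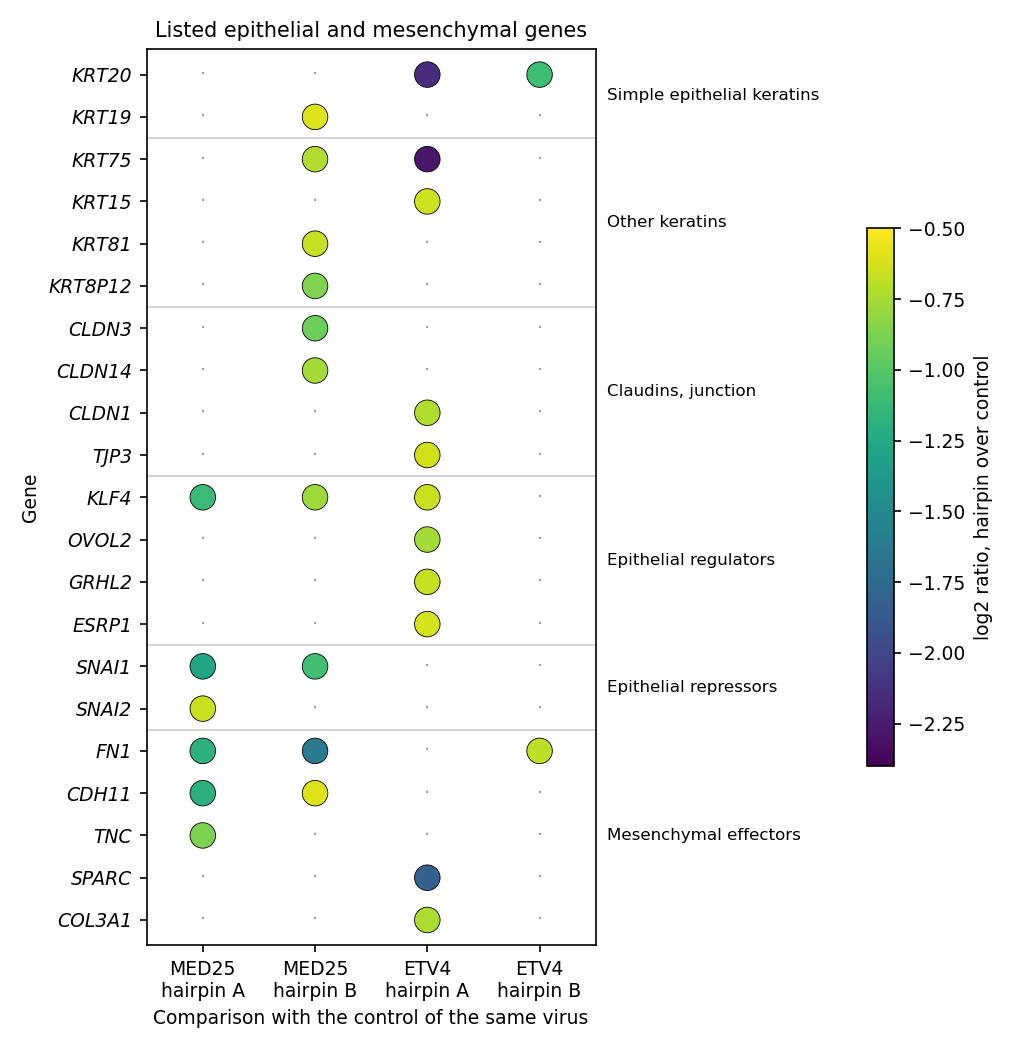
Circles show, by colour, the deposited log2 ratio of hairpin over control for each listed gene of the keratin, claudin, junction, epithelial regulator, epithelial repressor and mesenchymal lists (vertical axis) in the 4 comparisons (horizontal axis), and dots mark genes not listed. SNAI1 has circles for both MED25 hairpins, SNAI2 for MED25 hairpin A, KRT19 and CLDN3 for MED25 hairpin B, and KRT20 for both ETV4 hairpins. The MED25 hairpin A column holds no circle of a keratin or claudin. The ETV4 hairpin B column holds circles of KRT20 and FN1 alone. Mesenchymal genes have circles in all 4 columns, and epithelial regulators in all but that of ETV4 hairpin B.

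Of 11 epithelial repressors, SNAI1 and SNAI2 were listed with MED25 hairpin A and SNAI1 with MED25 hairpin B, beside 3.44% and 1.61% of all protein-coding genes. Both counts include SNAI1, which was chosen for its listing, so nothing is read from them. SNAI2, the close relative of SNAI1, was at −0.66 with hairpin A in the authors' deposited table. The SNAI2 score was low, at 27.0, number 708 of 786. ZEB1, ZEB2, TWIST1 and TWIST2 were in no table. With ETV4 hairpin A and B 0 of 11 were listed, where the shares of all protein-coding genes were 2.17% and 0.456%, so that a list of this size may well hold none.

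Regulators on the epithelial side were listed beside KRT20 with ETV4 hairpin A, and KLF4 also beside SNAI1 with MED25. With ETV4 hairpin A, 4 of 13 epithelial regulators were listed, or 30.8% beside 2.17% of all protein-coding genes. All 7 gene lists were chosen with earlier results of these data known, so nothing is read from such shares or from medians of the lists. The 4 regulators had a median of −0.66 against −0.79 over all 495 genes of the authors' deposited table. OVOL2, a repressor of mesenchymal genes, was at −0.76 and GRHL2, an activator of junction genes, at −0.67 in the authors' deposited table. The OVOL2 score was low, at 25.1, number 452 of 495. ESRP1, a splicing factor of epithelial cells, was at −0.63 and KLF4, a factor of epithelial differentiation, at −0.66 in the authors' deposited table. KLF4 was also at −1.11 and −0.78 with MED25 hairpin A and B in the authors' deposited tables. Its scores there were 53.3, number 485 of 786, and 29.1, number 314 of 374. With ETV4 hairpin B, where KRT20 was at −1.10, 0 of 13 were listed in the authors' deposited table, beside 0.456% of all protein-coding genes.

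Mesenchymal genes were listed in all 4 tables, beside SNAI1, KRT19 and CLDN3 as well as KRT20. With MED25 hairpin A 3 of 17 mesenchymal effectors were listed, and with hairpin B 2 of 17, or 17.6% and 11.8% beside 3.44% and 1.61% of all protein-coding genes. Nothing is read from shares or medians of this list, which was chosen with earlier results of these data known. The listed effectors had medians of −1.18 and −1.11, against −0.78 and −0.77 over all listed genes, in the authors' deposited tables. With hairpin B this median lies midway between only 2 genes, FN1 and CDH11, which differ widely. The matrix protein gene FN1 was at −1.18 and −1.62, and the cadherin gene CDH11 at −1.19 and −0.60, with hairpin A and B in the authors' deposited tables. TNC was at −0.88 with hairpin A in the authors' deposited table. With ETV4 hairpin A the matrix genes SPARC and COL3A1 were listed at −1.82 and −0.73, and with ETV4 hairpin B FN1 at −0.69, in the authors' deposited tables. These are 11.8% and 5.88% of the 17 effectors, beside 2.17% and 0.456% of all protein-coding genes. The median of SPARC and COL3A1 was −1.28, against −0.79 over all genes listed with ETV4 hairpin A. It lies midway between only these 2 genes, and COL3A1 decreased less than the −0.79. With ETV4 hairpin B, FN1 at −0.69 decreased less than the median of −0.77 over all listed genes. The tables listed lower genes alone, so they cannot show whether other epithelial or mesenchymal genes rose.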

How the data were processed

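RNA-seq of 17 PC3 libraries was available as 4 tables of the authors' own comparisons. Per the submitters' processing notes, Novoalign 3.08.02 and the build hg19 were used. How reads were counted, strand, annotation, scaling and the test are not stated in the labels or headers. Per the file headers, the authors deposited a log2 ratio and an adjusted p for each gene. The adjusted p was treated as a score because the authors deposited values from just above 20, or 0.01 on a scale of minus 10 times log10. The library number that both tables of a target have in common was taken for the control, and MED25 ratios were inverted to hairpin (shRNA) over control.

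Depth is unknown and no test was run. The 4 genes, 7 gene lists and 4 marker lists were chosen with earlier results of these data known, and 1 gene of these lists is not reported here. The genes named are the 4 genes, listed genes of the lists, other listed keratins and claudins, the targets, the 3 genes nearest in log2 ratio and the neighbours in rank. Gene positions, types, overlaps and transcript windows came from GENCODE 29 on GRCh38, which matched 1350 of 1400 genes. Promoters came from RefSeq on GRCh38.p14. Alternatives were a log2 ratio of at least 1 in size, a score of at least 50, matching by Ensembl identifier, ranking by score or among protein-coding genes, another distance, and the promoter bases before the start alone. Python 3.11.15, pandas 2.3.3, numpy 2.4.6 and matplotlib 3.10.9 were used. Rank, distance and motif functions were tested on simulated data.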

Additional observations from a re-analysis of the deposited data

How the results depend on the processing

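No paired analysis was possible because the values come from the authors' comparisons and not from single libraries, and for the same reason no replicate could be left out. Asking for a decrease of at least 2-fold left 1 of the 3 genes listed with MED25 hairpin B, SNAI1, and kept the counts of 1 in the other tables. With a score of at least 50 the count was 0 for MED25 hairpin A and 0 for ETV4 hairpin B, 2 for MED25 hairpin B and 1 for ETV4 hairpin A. Over all 7 gene lists, the count of 6 genes with MED25 hairpin A became 4 at 2-fold and 4 at that score. The counts of 7 with MED25 hairpin B, 10 with ETV4 hairpin A and 2 with ETV4 hairpin B became 2, 2 and 1 at 2-fold. At that score they became 4, 6 and 1. Both settings can only remove genes. Matching by Ensembl identifier gave the same counts, and ranks among protein-coding genes moved by less than 1.5 times. Ranking by score moved all 6 ranks by more than 1.5 times. The other distance named the same 3 genes for KRT20 and for SNAI1. The CAGGTG matches lie after the start, so the bases before it held 0.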
